A study of Mus musculus with 5 samples.

Results

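Immediate early genes were followed in 5 single-cell RNA sequencing (scRNA-seq) libraries of mouse lung. The set holds 8 genes, taken by their exact symbols from the 42454 features of the deposited matrices: the AP-1 subunit genes Fos, Fosb, Jun, Junb and Jund, the zinc finger transcription factor gene Egr1, and Ier2 and Dusp1. Newborn C57BL/6J mice less than 12 h old were kept in air or in more than 95% O2 for 3 days and then returned to room air until postnatal day 7 (pnd7) or pnd60. Unsorted lung cells of air-exposed and of hyperoxia-exposed mice gave 1 library each at pnd7 and at pnd60. A further library held lung cells of hyperoxia-exposed mice at pnd7, pooled from 3 mice and sorted by FACS for C12FDG, a substrate that becomes fluorescent when β-galactosidase cleaves it, an activity used as a marker of senescence. No sorted library from air was analysed here, and the number of mice behind each unsorted library is not given in the sources used here. The unsorted libraries come from an earlier dataset of the same authors, so dataset, sorting and library cannot be told apart when the sorted cells are compared with unsorted ones.

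Immediate early genes are transcribed within minutes of a stimulus, without new protein synthesis, and their RNAs decay fast. Serum response factor with its ternary complex partners and CREB, acting downstream of the MAP kinases, switch them on. Fos and Fosb proteins pair with Jun, Junb or Jund to form AP-1, which binds DNA. Fos proteins cannot form stable dimers with each other, whereas Jun proteins can. Egr1 binds GC-rich sites, Ier2 encodes a short-lived nuclear protein, and Dusp1 encodes a phosphatase that removes phosphate from MAP kinases and so limits the signal. Dusp1 is also a target of glucocorticoids. In lung, these genes answer stretch, growth factors and injury. The same genes are induced while a tissue is minced, digested and sorted, so a level in a cell suspension can reflect handling as well as the state in the animal. Handling differed in that the sorted library alone went through C12FDG staining and FACS. This cannot be told apart from the selection of cells, and the part of handling in the levels below was not tested.

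Promoter windows were searched for letters that match sites of such regulators. Windows of the 250 bases before the transcription start were taken from RefSeq (build GRCm38.p6, which is mm10) and matched by symbol for 6 of the 8 genes: Fos, Fosb, Jun, Junb, Jund and Dusp1. The 3 windows printed here are those of the genes that differed most between libraries, Fos and Fosb with the sort and Dusp1 with age. The Fos window lies at chr12:85473640-85473889 on the plus strand, that of Fosb at chr7:19310046-19310295 on the minus strand and that of Dusp1 at chr17:26508473-26508722 on the minus strand, each running 5′ to 3′ up to the base before the start. Capitals mark the searched letters: the cAMP response element (CRE) TGACGTCA, its core TGACG, the EGR site GCGNGGGCG and the TATA box TATAAA.
Fos: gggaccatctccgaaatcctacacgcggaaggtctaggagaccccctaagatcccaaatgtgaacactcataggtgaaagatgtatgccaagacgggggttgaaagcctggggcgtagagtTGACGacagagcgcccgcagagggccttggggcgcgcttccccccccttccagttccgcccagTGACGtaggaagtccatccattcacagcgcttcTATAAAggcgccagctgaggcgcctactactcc
Fosb: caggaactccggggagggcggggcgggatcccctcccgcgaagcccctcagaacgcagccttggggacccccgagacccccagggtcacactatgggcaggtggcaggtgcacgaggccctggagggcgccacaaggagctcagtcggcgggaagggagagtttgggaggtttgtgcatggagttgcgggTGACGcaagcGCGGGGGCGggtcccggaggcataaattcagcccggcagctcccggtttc
Dusp1: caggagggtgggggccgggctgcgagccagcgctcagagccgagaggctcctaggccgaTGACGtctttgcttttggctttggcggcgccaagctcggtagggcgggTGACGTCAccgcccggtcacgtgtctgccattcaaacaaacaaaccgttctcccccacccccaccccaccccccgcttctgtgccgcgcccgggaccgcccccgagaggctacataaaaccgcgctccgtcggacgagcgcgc
In the Fos window the CRE core stood at -129 to -125 and at -66 to -62 relative to the start, and the TATA box at -33 to -28. Dusp1 held the full CRE at -143 to -136, which contains the core on both strands, and a further core at -191 to -187. Fosb held a core at -60 to -56 and the EGR site at -50 to -42. Of the 6 windows, 4 held the core (the 4th is Junb), against 17.8% of 32851 RefSeq windows of the same length. The full CRE was in 1 of the 6 and in 1.55% of all windows, the EGR site in 1 and 4.70%, and the TATA box, searched on the sense strand only, in 1 and 7.59%. The AP-1 site TGANTCA was in 0 of the 6 and in 6.75% of all windows, and the CArG box, the site of serum response factor, in 0 and 1.47%. Apart from the TATA box, all motifs were searched on both strands. These are matches of letters within 250 bases, not measured binding. Bases farther upstream, variants of these letters, and the promoters of Egr1 and Ier2 were not searched. A count of 0 therefore does not mean that the genes lack the site.

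After cells with more than 700 and fewer than 8000 genes and under 5% mitochondrial counts were kept, the libraries held 493 to 4756 cells and 7880365 to 16648251 counts of unique molecular identifiers (UMIs). The libraries differed in depth: the median was 15529 counts per cell in the sorted library, 3915 and 7119.5 in air and hyperoxia at pnd7, and 2168 and 2315.5 at pnd60. The sorted library also stood apart in its cells, 413 of 493 being alveolar macrophage-like. No cell barcode was shared with the sorted library, and at most 7 barcodes were shared between any 2 of the others. Levels are counts-per-million values (CPM), taken from the counts of a gene over all cells of a group and the total counts of those cells. The 3′ kit counts each RNA molecule once at its end, so no division by gene length was needed to set genes side by side, although capture may differ between genes. All intervals are given at 95% and hold the error of counting alone. Since every condition had a single library, there was no spread between mice or cultures, so no p-value is given, and "higher" or "lower" beyond counting error compares libraries, not conditions.

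The 8 genes summed reached 3548 CPM in air and 3989 CPM in hyperoxia at pnd7, 5635 CPM in air and 5920.3 CPM in hyperoxia at pnd60, and 1731 CPM in the sorted library. The sorted library held the lowest sum, and both pnd60 libraries lay above both pnd7 libraries. Fos, the inducible partner of the Jun proteins, was at 775, 934, 172, 971 and 1060 CPM in air pnd7, hyperoxia pnd7, sorted pnd7, air pnd60 and hyperoxia pnd60, the order kept for the genes that follow. Its paralog Fosb was at 231, 270.3, 52.3, 453 and 523 CPM. Both Fos genes were thus lowest after sorting and highest in hyperoxia at pnd60.

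Jun, an AP-1 subunit that can act as a homodimer, was at 905, 982, 344, 905 and 952 CPM. Junb, which activates transcription less strongly than Jun, was at 646, 736, 632, 1244 and 1490.1 CPM. Jun differed little among the unsorted libraries, whereas Junb was near its pnd7 level in the sorted library and higher at pnd60. Jund was at 12.97, 15.8, 25.1, 15.6 and 18.1 CPM, and was the one member with its highest level in the sorted library. The Jund level is uncertain, because the annotation holds a further feature, Jund_1, with 221, 270, 127, 176 and 203 counts in the same cells against 216, 215, 198, 230 and 300 for Jund. Reads that match both features would be counted for neither if the usual rule of unique assignment was used, which the sources used here do not state.

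Egr1 was at 362, 352, 96.1, 500.3 and 548 CPM. Ier2 was at 288, 299, 96.8, 349 and 386 CPM. Dusp1, the phosphatase of the feedback arm, was at 328, 399.8, 313, 1197 and 944 CPM. Dusp1 had the widest range among the unsorted libraries and, unlike the other genes, was higher in air than in hyperoxia at pnd60.

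**Figure D1:**
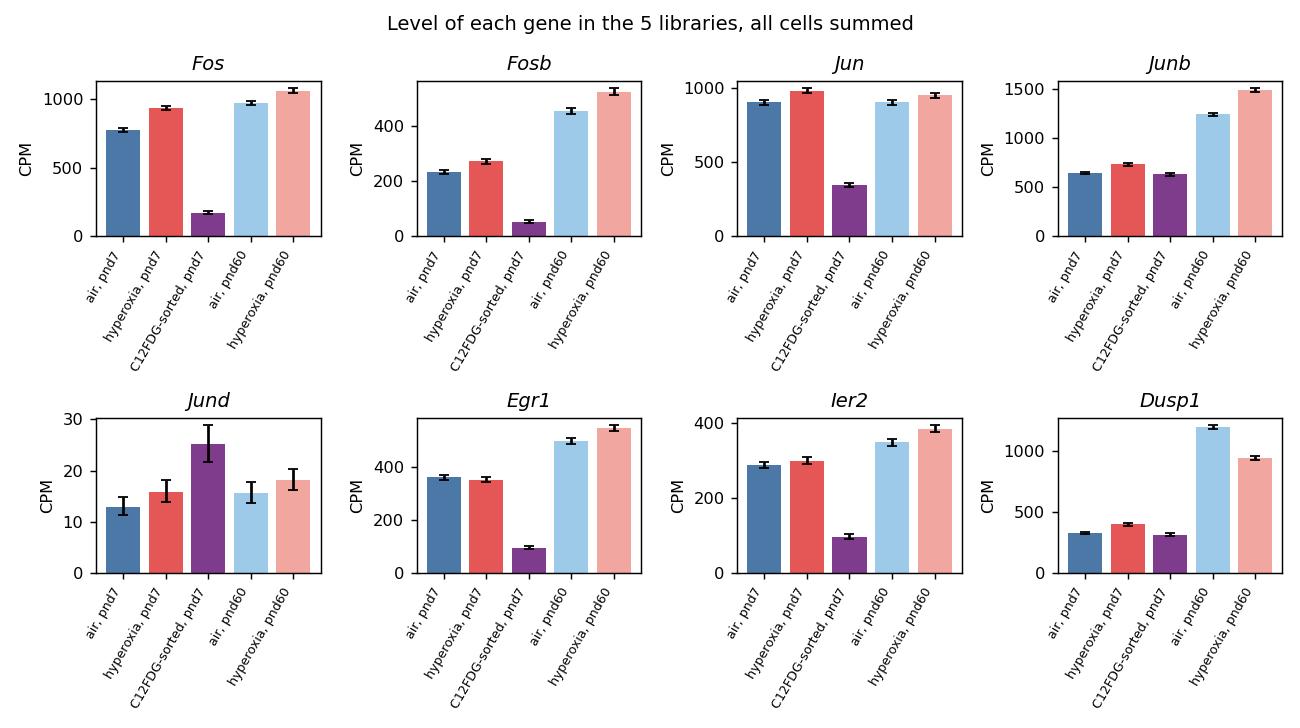
Level of each of the 8 genes in CPM (vertical axis, from 0, scaled separately for each gene) in the 5 libraries (horizontal axis). Bars are the counts of all cells summed and error bars the exact Poisson 95% interval. Fos stands at 934 CPM in unsorted hyperoxia and 172 CPM in sorted cells at pnd7, while Dusp1 stands at 1197 and 944 CPM at pnd60 against 328 and 399.8 CPM at pnd7.

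The counts were unevenly spread over cells. For Egr1, the tenth of cells with most counts held 73.3% of its counts in air at pnd7, 74.0% in hyperoxia, 95.0% in the sorted library, and 78.6% and 76.8% at pnd60. For Junb the shares were 52.6%, 47.8%, 55.4%, 39.4% and 37.7%. Egr1 was thus the more concentrated of the pair in every library. At least 1 UMI of any of the genes was in 95.2%, 93.7%, 98.2%, 97.2% and 97.4% of the cells, shares that rest on unequal depths. After each cell was thinned to 1000 counts, the shares were 82.9%, 77.8%, 61.3%, 91.2% and 91.9%. The thinned shares put the sorted library lowest, the opposite of its place before thinning. Thinned cells with 4 or more of the 8 genes made up 18.6%, 18.7%, 5.68%, 23.1% and 25.7% of the libraries.

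Barcodes dominated by hemoglobin, with over 50% of their counts from hemoglobin genes, served as a reference of red cells, which have no nucleus when mature. Barcodes that passed the cell filter, any nucleated precursors and any red cells joined with another cell were not taken out. Few barcodes held the counts: the 85 of Junb in air at pnd7 lay in 2.30% of barcodes and the 51 in hyperoxia in 1.18%. The part of such other cells in the red-cell levels was not tested. Their 8 genes summed to 549 and 507 CPM of non-hemoglobin counts in air and hyperoxia at pnd7 and to 2216 and 1564 at pnd60, against 3673, 4080, 5652 and 5927 in the cells of the same libraries. A UMI of any member was in 6.91% of 1215, 7.58% of 1016, 23.1% of 242 and 13.5% of 111 such barcodes, whose median non-hemoglobin counts were 246, 231.5, 158.5 and 127. The corresponding cells had 95.2%, 93.7%, 97.2% and 97.4% at the depths given above. The summed level in red-cell barcodes was therefore below that in cells in all 4 unsorted libraries, and was higher at pnd60 than at pnd7. The part of free RNA in the levels of cells was not tested at either age. The red-cell values are shares of few counts and do not give the amount that free RNA adds to a cell. In these barcodes Fos stood at 69.8 in air at pnd7 and at 234 in air at pnd60, and in hyperoxia at 60.5 and, on 1 count, at 47.4. Jund was the exception among the genes, at 29.3 and 42.9 on the same scale in the red-cell barcodes of air and hyperoxia at pnd7 against 13.4 and 16.2 in cells. Its share in cells at pnd7 was thus not above that in the red-cell barcodes.

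**Figure D2:**
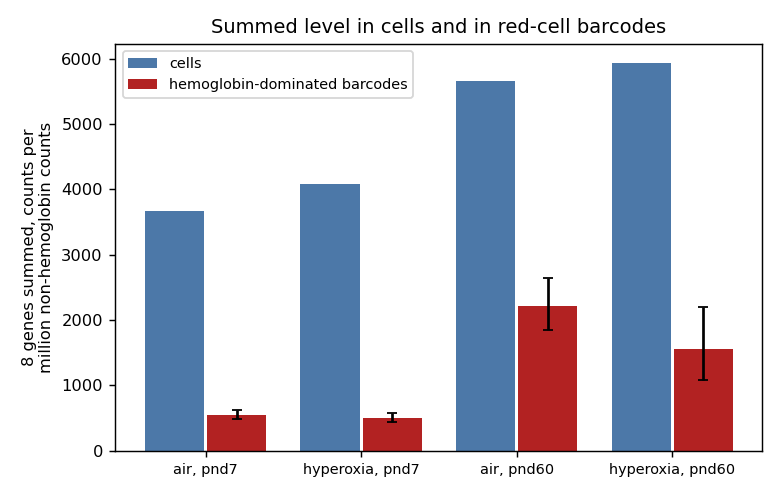
Summed level of the 8 genes (vertical axis, CPM of non-hemoglobin counts, from 0) in filtered cells (blue) and in barcodes with over 50% hemoglobin counts (red) of the 4 unsorted libraries. Error bars, on the red bars, are exact Poisson 95% intervals, and the red bars stand at 549, 507, 2216 and 1564, each below the blue bar of its library.

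Detection of Fos went with detection of most of the other genes in the same cells. Over 28 groups of cells of 1 class and 1 library, thinned to 1000 counts, Fosb was detected in a median of 31.2% of the cells with Fos and 12.1% of those without, and was more frequent with Fos in 28 of 28 groups. Jun was in 57.0% and 30.6% (28 of 28 groups), Dusp1 in 41.1% and 23.7% (27 groups), Junb in 57.3% and 34.5% (26 groups), Egr1 in 26.3% and 16.8% (25 groups), and Ier2 in 29.7% and 21.4% (23 groups). Jund was in 1.71% and 1.24%, more frequent with Fos in 14 of 28 groups. Each gene but Jund was thus more frequent in cells with Fos in at least 23 of the 28 groups. The groups share libraries, and the shares are descriptions.

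Cells were clustered without the 8 genes and named from marker lists, as "X-like" classes, so that the classes did not rest on the genes described. A class was used in a library where it had at least 20 cells. In air at pnd7 the summed genes ran from 6044 CPM in interstitial macrophage-like cells to 1745 CPM in B-like cells over 13 classes, and in hyperoxia at pnd7 from 6243 CPM in monocyte-like to 2292 CPM in erythroid-like cells over 11 classes. At pnd60 the range was wider, from 17003 CPM in neutrophil-like to 2086 CPM in type I-like cells in air and from 20136 to 1644 CPM in the same classes in hyperoxia, over 15 classes each. Monocyte-like cells were among the 4 highest classes in all 4 unsorted libraries. In air at pnd7, monocyte-like and type II-like cells (4975 and 4769 CPM) were not separated by their intervals, nor were endothelial-, ciliated-, pericyte- and type I-like cells taken as neighbours in the order (3725 to 3262 CPM), nor alveolar macrophage- and fibroblast-like cells (2619 and 2579 CPM). In air at pnd60, interstitial macrophage- and monocyte-like cells (13261 and 13259 CPM) overlapped, as did alveolar macrophage-, pericyte- and type II-like cells as neighbours (5143 to 4865 CPM) and NK- and ciliated-like cells (4527 and 4463 CPM). The neutrophil-like class, with 31 and 60 cells, and the myofibroblast or smooth muscle-like class, with 23 and 23 cells, were small at pnd60. At pnd7 the neutrophil-like class had 16 and 14 cells and was not used. The highest classes at pnd7 and pnd60 thus come from different sets of classes.

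The leading gene differed by cell class. Jun led in endothelial-like cells in all 4 unsorted libraries, at 1547 and 1586 CPM in air and hyperoxia at pnd7 and 2410 and 2240 CPM at pnd60, and in type II-like cells, at 1572, 1396, 1228 and 1363 CPM. In B-like cells Jun was at 72.6, 86.4, 254 and 221 CPM. Over all classes of an unsorted library the highest Jun was 12.4 to 22.5 times the lowest. The highest was in interstitial macrophage-like cells in air at pnd7 (1635 CPM) and in myofibroblast or smooth muscle-like cells in hyperoxia at pnd60 (2303 CPM), with endothelial-like cells highest in the other libraries, and the lowest was in B-like cells at pnd7 and NK-like cells at pnd60 (155 and 185 CPM). The lowest levels were near or below Jun in the red-cell barcodes, 74.3 and 80.7 CPM at pnd7 and 505 and 284 CPM at pnd60. The 284 CPM of hyperoxia rests on 6 counts (104 to 619), an interval that holds the 185 CPM of NK-like cells. The part of free RNA in these lowest levels was not tested, and the ratios rest on them.

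Junb led in lymphocyte-like cells, but not in them alone. It also led in monocyte-like cells of every unsorted library but air at pnd60. In the unsorted libraries at pnd7 monocyte-like cells had the highest Junb of any class, 1732 and 1928 CPM. Junb was at 1096, 1860, 1852 and 2240 CPM in B-like cells, and at 1358, 1653, 1790 and 2449 CPM in T-like cells. NK-like cells, measured at pnd60 only, had 2769 and 3461 CPM. In every unsorted library Junb was above Jun in B-like and T-like cells and below Jun in endothelial-like and type II-like cells. Neutrophil-like cells at pnd60 had the highest Junb of any class, 5536 and 7367 CPM.

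Fos was highest in monocyte-like cells at pnd7, at 1679 and 1910 CPM, and in interstitial macrophage-like cells at pnd60, at 3463 and 4086 CPM. In thinned cells at pnd60, interstitial macrophage-like cells had 3.31 Fos counts per cell in air and 4.32 in hyperoxia. Neutrophil-like cells had 3.68 and 4.28, so they were the higher of the pair in air. The lowest classes of the unsorted libraries were B-like cells in air and T-like cells in hyperoxia at pnd7, at 160.1 and 204 CPM. At pnd60 they were type I-like cells, at 212 and 185 CPM. The 212 CPM of air was not above Fos in the red-cell barcodes, 234 CPM on 13 counts (125 to 401). In hyperoxia the red-cell value was 47.4 CPM on 1 count. Fosb did not share the order of Fos: at pnd7 it was highest in type II-like cells, at 433 and 454 CPM, and lowest in T-like cells, at 37.5 and 29.6 CPM.

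Egr1 had the widest range over classes, 51.8 to 93.8 times between highest and lowest in the unsorted libraries. It was highest in myofibroblast or smooth muscle-like cells in all 4, at 767 and 732 CPM at pnd7 and 4998 and 4625 CPM at pnd60. At the lower clustering resolution of 1 that class had 0 cells at pnd60, and the pericyte-like class went from 31 to 54 cells in air and from 35 to 57 in hyperoxia, in a cluster that also raised 9 of 10 myofibroblast or smooth muscle markers. In monocyte-like cells it was at 14.8 and 7.81 CPM at pnd7, beside Fos at 1679 and 1910 CPM, and at 639.5 and 526 CPM at pnd60. The pnd7 values rest on 7 and 3 counts and lie below the 29.3 and 27.7 CPM of Egr1 in the red-cell barcodes. The part of free RNA in them was not tested, and the widest ratio of 93.8 is set by the 3 counts. At pnd60 the lowest class was T-like, at 65.7 and 52.2 CPM. These values also lay below Egr1 in the red-cell barcodes, at 72.1 and 94.8 CPM on 4 and 2 counts.

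Ier2 was highest in monocyte-like cells at pnd7, at 520.1 and 559.5 CPM, and in neutrophil-like cells at pnd60, at 1001 and 1238 CPM. In the unsorted libraries it was lowest in fibroblast-like cells at pnd7 (101 and 146 CPM) and in type I-like cells at pnd60 (48.9 and 40.0 CPM). The type I-like values lay below the 144 and 332 CPM of Ier2 in the red-cell barcodes at pnd60. Those rest on 8 and 7 counts (62.2 to 284 and 133 to 683 CPM). Dusp1 was lowest in B-like cells at pnd7, at 31.4 and 33.9 CPM, and highest in neutrophil-like cells at pnd60, at 6401 and 6290 CPM. The B-like values were not above the 33.8 and 90.8 CPM of Dusp1 in the red-cell barcodes at pnd7. Monocyte-like cells at pnd60 had 4159 and 2781 CPM of Dusp1 and fibroblast-like cells 2348 and 1972 CPM. Jund stayed at or below 40.1 CPM in all classes. In the 23 myofibroblast or smooth muscle-like cells of air at pnd60, 0 counts of Jund were found. There 3 counts, set as the floor, would be 44.8 CPM.

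**Figure D3:**
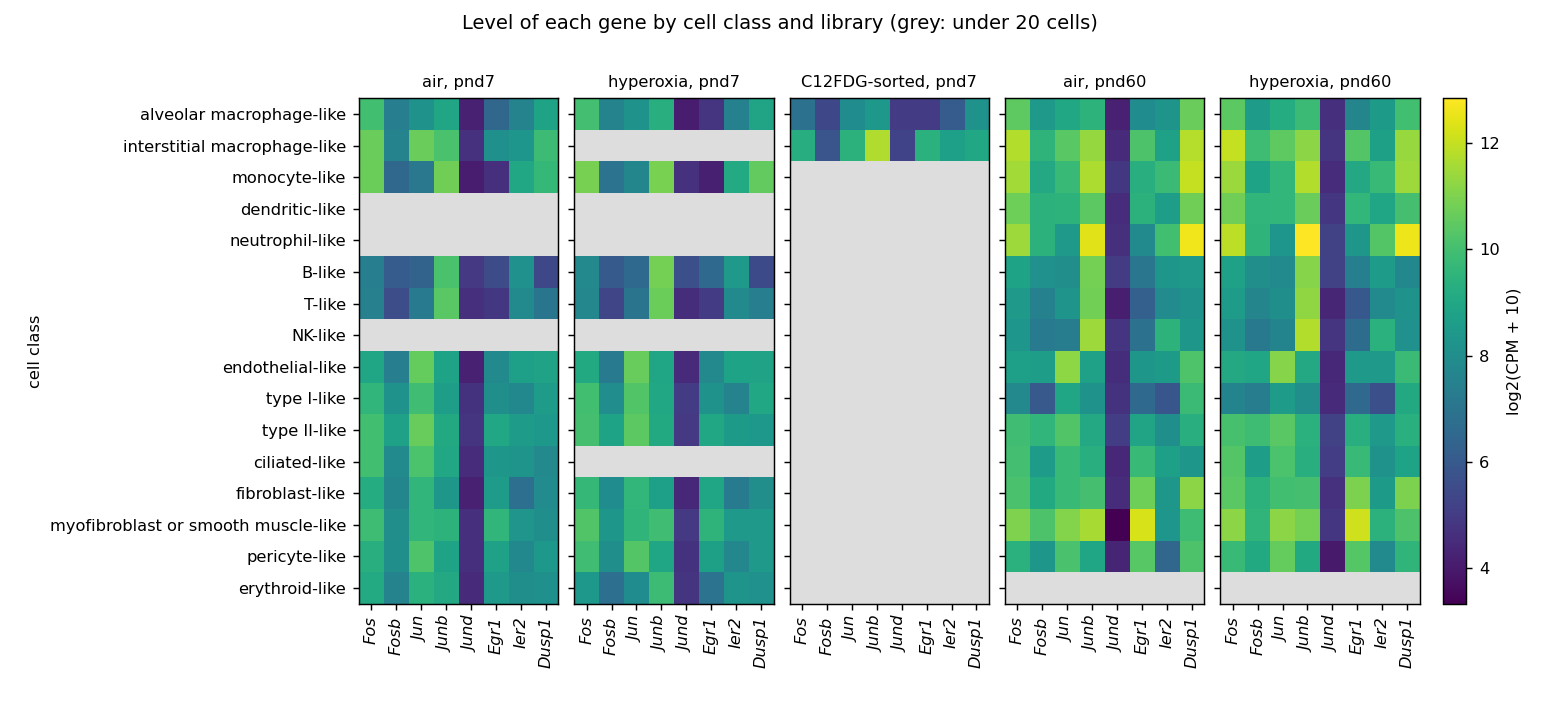
Level of each gene (columns) by cell class (rows) in the 5 libraries (panels), coloured by log2(CPM + 10). Grey marks classes with fewer than 20 cells. Junb is bright in B-, T-, NK-, monocyte- and neutrophil-like rows and Jun in the endothelial-like row. Egr1 is bright in the myofibroblast or smooth muscle-like row at pnd60, where it reached 4998 and 4625 CPM.

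Over the 56 combinations of class and library, levels of some members went together more than those of others. On log2(CPM + 10), Pearson's r was 0.79 for Jun and Egr1, 0.77 for Fosb and Egr1, 0.75 for Fos and Fosb, 0.75 for Fos and Dusp1, and 0.73 for Junb and Ier2. For Jun and Junb it was -0.33. The points share libraries and depth, so these are descriptions without a test. Among 14366 genes outside the set, those most like the summed genes were Btg2 (r = 0.85), an antiproliferative gene that is itself quickly induced, Nfkbiz (0.82), an atypical inhibitor of NF-κB, Zfp36 (0.81), which destabilises AU-rich RNAs such as that of Fos, Gm34455 (0.80) and Socs3 (0.77), a feedback inhibitor of cytokine signalling. The median r of all 14366 genes was -0.03. The listed heat shock genes had a median r of -0.36 over 9 genes, from 0.17 for Dnajb1 to -0.65 for Hspd1. Hspa1a and Hspa1b were listed too but had too few counts to be included. The 17 feedback inhibitors and RNA decay genes had a median r of 0.44.

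The first comparison asks whether neonatal hyperoxia left a difference at pnd7, during alveolar growth. The 8 genes were slightly higher in hyperoxia than in air, with a median log2 ratio of 0.21 (medians of the genes' limits 0.12 to 0.26), against -0.02 over 12591 genes with at least 100 counts. Fos (0.27), Fosb (0.22), Jun (0.12), Junb (0.19), Jund (0.29) and Dusp1 (0.28) were higher beyond counting error. These are 6 of the 8 genes, with 0 lower, where 16.3% of all genes were above and 18.4% below. The share among all genes includes many with few counts, in which small ratios cannot be seen. Egr1 was at 352 CPM in hyperoxia and 362 CPM in air, a log2 ratio of -0.04 (-0.10 to 0.01), and Ier2 at 299 and 288 CPM, a log2 ratio of 0.06, both within counting error. Of the members 0 were past 2-fold in either direction, where 0.183% of all genes were past 2-fold higher and 0.802% lower. When cells were thinned to 1000 counts the median was 0.10. These whole-library ratios also mix cell classes, whose shares differed between the libraries. Erythroid-like cells were 22.6% of cells in air and 6.98% in hyperoxia, and endothelial-like cells 6.76% and 15.1%. With classes weighted alike the median was 0.15.

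Within classes at pnd7, the summed genes were higher in hyperoxia in 9 of 11 classes, with B-like cells at the upper end (log2 ratio 0.64). They were lower in type II-like (-0.04) and erythroid-like cells (-0.30). When each cell was thinned to 1000 counts, so that cells weighed alike, 7 of the 9 classes kept their order and 0 of the 2 lower ones did. Type I-like cells turned, with 3.09 counts per thinned cell in air and 2.44 in hyperoxia, and so did myofibroblast or smooth muscle-like cells, with 4.14 and 4.09. Junb was higher in 8 of 11 classes and lower in 0, and 6 of the 8 kept that order in thinned cells. Jun was higher in 2 classes and lower in 2, with a median log2 ratio over classes of 0.04. Fosb was higher in 2 and lower in 1, with a median of -0.01. Ier2 was higher in 2 and lower in 0, and Jund was higher in 0 and lower in 0. Fos was higher in 6 and lower in 1, of which 4 and 0 kept their order, with fibroblast-like cells at 591 CPM in air and 802 CPM in hyperoxia. Dusp1 was higher in 3 classes and lower in 0, but in thinned cells only the monocyte-like class kept that order. In monocyte-like cells Dusp1 was at 812 CPM in air and 1509 CPM in hyperoxia, a log2 ratio of 0.89. Both monocyte-like clusters had that order, cluster 8 with 836 and 1494 CPM and cluster 12 with 770 and 1538 CPM. Egr1 in alveolar macrophage-like cells was at 77.96 CPM in air and 17.9 CPM in hyperoxia. In cluster 5, which held most of these cells in both libraries, it was at 23.6 and 11.3 CPM, and in thinned cells of the class the order turned, so that difference depended on the cells taken and their weight. The cluster 5 values lay below the 29.3 and 27.7 CPM of Egr1 in the red-cell barcodes. The erythroid-like class rested on different clusters, and 10 of its 87 hyperoxia cells were erythroid by their own markers. In cluster 10 the summed genes were at 3159 CPM in air and 3112 CPM in hyperoxia. Cluster 25 held 205 air cells, at 2963 CPM, and 1 hyperoxia cell, while cluster 41 held 20 hyperoxia cells, at 1928 CPM, and 9 air cells. The type I-like cells of air at pnd7, 225 in number, had a median of 2077 counts against 12416 in the 43 of hyperoxia, and their cluster 17 was also raised in 4 erythroid markers. By their own markers 111 of the 225 were type I. At the lower clustering resolution of 1 there were 0 type I-like cells at pnd7, and a cluster with 237 air and 71 hyperoxia cells that raised 8 of 10 type I and 7 of 7 mesothelial markers was left unnamed. The part of these other markers in the values of the class was not tested. The classes of a comparison come from the same pair of libraries and are not independent.

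At pnd60, after recovery in room air into adulthood, the comparison asks whether a difference persisted. Most members were again a little higher in hyperoxia and Dusp1 was lower. Fos (log2 ratio 0.13), Fosb (0.21), Jun (0.07), Junb (0.26), Egr1 (0.13) and Ier2 (0.14) were higher beyond counting error, and Jund was at 18.1 CPM in hyperoxia and 15.6 CPM in air, within counting error. Dusp1 was at 944 CPM in hyperoxia and 1197 CPM in air, a log2 ratio of -0.34 (-0.37 to -0.31). The counts were 6 of 8 higher and 1 lower, where 11.0% of 12928 genes were higher and 8.48% lower. The median log2 ratio was 0.14 (0.09 to 0.19), against 0.01 over all genes. Past 2-fold there were 0 members in either direction, where 0.271% of genes were higher and 0.248% lower.

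Within classes at pnd60, Dusp1 was lower in hyperoxia in 9 of 15 classes and higher in 1, and all 10 kept their order in thinned cells. In dendritic-like cells it was at 1752 CPM in air and 1044 CPM in hyperoxia (log2 ratio -0.75), in alveolar macrophage-like cells at 1630 and 981 CPM (-0.73), and in monocyte-like cells at 4159 and 2781 CPM (-0.58). The class with higher Dusp1 was ciliated-like, at 315 and 451 CPM (0.52), with 42 and 38 cells. Neutrophil-like cells had 6401 and 6290 CPM, within counting error. Junb was higher in 8 of 15 classes, among them T-like (1790 and 2449 CPM) and neutrophil-like cells (5536 and 7367 CPM), and lower in 1. In type II-like cells Egr1 was at 462 CPM in air and 634 CPM in hyperoxia (0.46). The summed genes were higher in 7 of 15 classes and lower in 3. The lower Dusp1 was thus found in dendritic-, alveolar and interstitial macrophage-, monocyte-, endothelial-, fibroblast-, pericyte-, type I- and B-like cells, while the class with lower Junb was myofibroblast or smooth muscle-like. Dusp1 in B-like cells was not above its 360 and 284 CPM in the red-cell barcodes of air and hyperoxia at pnd60.

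**Figure D4:**
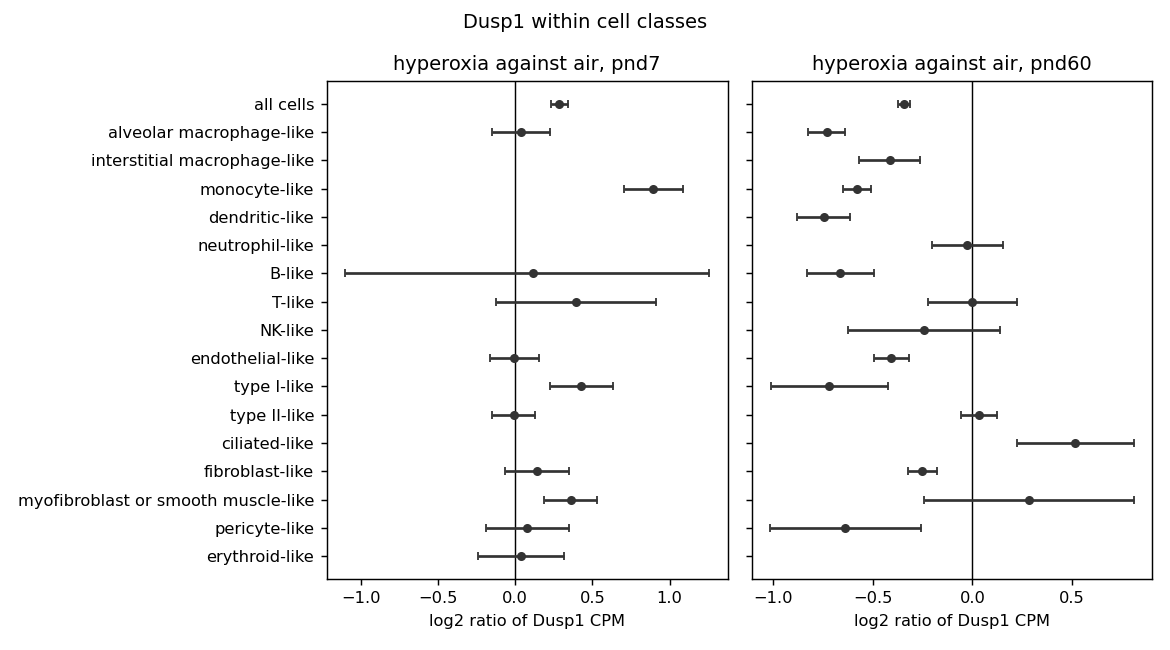
Log2 ratio of Dusp1 CPM in hyperoxia against air (horizontal axis) for all cells and each cell class (vertical axis) at pnd7 (left) and pnd60 (right). Points are ratios of summed counts and bars their 95% intervals from the binomial distribution. At pnd60 9 of 15 classes lie below 0 beyond counting error, and at pnd7 0 of 11 do.

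The libraries at pnd60 were also set against those at pnd7, in air and in hyperoxia separately. These comparisons use the same libraries as those above, so each is given by its own values. Whole-library ratios also mix cell classes, whose shares differed between the ages. B-like cells were 5.20% of cells at pnd7 and 28.4% at pnd60 in air, and 5.30% and 26.7% in hyperoxia. Erythroid-like cells were 22.6% and 0.341% in air, and 6.98% and 0.315% in hyperoxia. The part of this mix in the ratios was not tested. In air, Fosb (231 and 453 CPM), Junb (646 and 1244 CPM) and Dusp1 (328 and 1197 CPM) differed most, with log2 ratios of 0.97, 0.95 and 1.87. Fos (0.32), Egr1 (0.46) and Ier2 (0.28) were also higher beyond counting error, while Jun was at 905 CPM at both ages. These were 6 of 8 genes higher and 0 lower, where 50.7% of 13003 genes were higher and 28.9% lower. Dusp1, 1 of the 8, was past 2-fold higher and 0 lower, where 15.1% of genes were past 2-fold higher and 9.35% lower. The median of the 8 was 0.39, against 0.23 over all genes.

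In hyperoxia, Fosb (270.3 and 523 CPM), Junb (736 and 1490.1 CPM) and Dusp1 (399.8 and 944 CPM) again had the largest log2 ratios, 0.95, 1.02 and 1.24. Fos (0.18), Egr1 (0.64) and Ier2 (0.36) were higher and Jun lower (-0.05) beyond counting error. These were 6 higher and 1 lower, where 53.2% of 12923 genes were higher and 29.0% lower. Junb and Dusp1 were past 2-fold higher and 0 genes past 2-fold lower, where 19.1% and 9.49% of all genes were. The median of the members was 0.50 and that of all genes 0.29.

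Within classes, the summed genes were higher at pnd60 in 10 of 12 classes in air and in 9 of 10 in hyperoxia, and lower in 1 in each. In thinned cells 9 of the 10 and 9 of the 9 higher classes kept that order. Dusp1 was higher at pnd60 in 12 of 12 classes in air and in 9 of 10 in hyperoxia. In fibroblast-like cells it was at 230.4 CPM at pnd7 and 2348 CPM at pnd60 in air, and at 254 and 1972 CPM in hyperoxia. B-like cells had 31.4 and 333 CPM in air and 33.9 and 210.2 CPM in hyperoxia. Cluster 0, with 624 and 618 of the B-like cells at pnd60, held 0 and 1 at pnd7, but in cluster 14, present at both ages, Dusp1 was at 23.3 and 316 CPM in air and at 36.5 and 155 CPM in hyperoxia. In the red-cell barcodes Dusp1 was at 33.8 and 360 CPM in air and at 90.8 and 284 CPM in hyperoxia. The B-like values were thus not above those of the red-cell barcodes at either age, of which the 284 CPM rests on 6 counts (104 to 619). The part of free RNA in the difference of the B-like cells was not tested. Junb was higher in 8 of 12 and 7 of 10 classes and lower in 1 in each. Its median log2 ratio over the classes was 0.48 in air and 0.39 in hyperoxia. Fosb was higher in 10 of 12 and 9 of 10 classes and lower in 1 in each. Egr1 was higher in 10 of 12 and 9 of 10 classes. For monocyte-like cells the mix of clusters 8 and 12 differed with age, and within both clusters Egr1 was higher: in air it was at 16.5 CPM at pnd7 and 472 CPM at pnd60 in cluster 8, and at 11.7 and 725 CPM in cluster 12. Myofibroblast or smooth muscle-like cells were mostly cluster 20 at pnd7 and all cluster 34 at pnd60. In cluster 34 alone, Egr1 was at 889 CPM in 44 cells at pnd7 and 4998 CPM in 23 cells at pnd60 in air, and at 460.4 CPM in 12 cells and 4625 CPM in 23 cells in hyperoxia.

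The class with a lower sum at pnd60 was type I-like, whose naming at pnd7 is uncertain as given above. Its summed genes were at 3262 CPM at pnd7 and 2086 CPM at pnd60 in air, and at 3966 and 1644 CPM in hyperoxia. Fos was at 761 and 212 CPM in air and at 996 and 185 CPM in hyperoxia, whereas Dusp1 was at 377 and 896 CPM and at 508 and 545 CPM, the latter pair within counting error. The 212 CPM of Fos was not above its 234 CPM in the red-cell barcodes of air at pnd60. Only 41 and 56 type I-like cells were present at pnd60, most of them in cluster 38, against cluster 17 at pnd7. Endothelial-, fibroblast- and type II-like cells likewise rested on different clusters at the 2 ages, namely 18, 21 and 13 at pnd7 and 1, 6 and 2 at pnd60. Alveolar macrophage-like cells shared cluster 5, in which the summed genes were at 2634 and 5253 CPM in air and at 3255 and 4880 CPM in hyperoxia. Age, depth per cell and library cannot be told apart, nor can the mix of cell classes in the whole-library ratios.

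The last comparison sets C12FDG-sorted cells beside unsorted cells of the same exposure and age. The sorted cells had less of most members: Fos 172 against 934 CPM, Fosb 52.3 against 270.3 CPM, Egr1 96.1 against 352 CPM, Ier2 96.8 against 299 CPM and Jun 344 against 982 CPM. The log2 ratios of these 5 genes were -2.44, -2.37, -1.87, -1.63 and -1.52, all past 2-fold lower, as were 36.4% of 11340 genes. Junb (632 against 736 CPM, -0.22) and Dusp1 (313 against 399.8 CPM, -0.35) were lower by less, and Jund was higher (25.1 against 15.8 CPM, 0.67). Beyond counting error 7 members were lower and 1 higher, where 61.2% of all genes were lower and 22.4% higher. Past 2-fold higher were 0 of the 8 and 8.17% of all genes. The median over members was -1.57 (-1.66 to -1.49) and over all genes -0.55. This comparison also sets macrophages against a whole lung, so it was repeated within a class.

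Alveolar macrophage-like cells numbered 413 in the sorted library and 63 in unsorted hyperoxia. In them Fos was at 107 CPM after sorting against 1017 CPM, a log2 ratio of -3.25 (-3.40 to -3.11), and Fosb at 32.1 against 179.7 CPM, a log2 ratio of -2.49 (-2.79 to -2.18). Ier2 was at 58.2 against 173 CPM (-1.57), Junb at 325 against 635 CPM (-0.97), Dusp1 at 279.7 against 459.7 CPM (-0.72) and Jun at 241 against 288 CPM (-0.26). In thinned cells the order of Jun turned, with 0.298 counts per cell sorted and 0.254 unsorted. Fos and Fosb thus differed far more than Jun, their dimer partner. Jund was at 21.2 against 6.70 CPM, on 6 counts in unsorted cells. Of the 8 genes 6 were lower and 1 higher beyond counting error, where 38.7% of 6650 genes were lower and 13.9% higher. Past 2-fold, 3 were lower and 1 higher, where 13.6% of genes were lower and 3.97% higher. The median log2 ratio was -0.84 (-0.99 to -0.70), against -0.28 over all genes.

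Egr1 in these cells depended on how they were named. With clusters it was at 22.6 CPM sorted and 17.9 CPM unsorted, within counting error, on 150 sorted and 16 unsorted counts. Both values lay below the 27.7 CPM of Egr1 in the red-cell barcodes of unsorted hyperoxia. Red-cell barcodes of the sorted library were not measured, and the part of free RNA in these values was not tested. When each cell was classed by its own markers it was at 16.6 and 51.2 CPM, a log2 ratio of -1.63. The clusters also differed: 371 of the sorted cells were in cluster 9, which held 2 unsorted hyperoxia cells and was led by Hmox1, Slc7a11, Mt1 and Mt2, genes of the oxidative and metal stress responses. Cluster 5 held 46 of the 63 unsorted cells and 0 sorted cells. Cluster 36, led by genes of the cell cycle, was the one with at least 10 cells of both, 42 sorted and 15 unsorted. There Fos was at 93.9 against 612 CPM, a log2 ratio of -2.70 (-3.08 to -2.33), and Fosb at 34.1 against 113 CPM. Jun was at 251 against 182 CPM in that cluster, a log2 ratio of 0.46 (0.01 to 0.95), the opposite direction to that in the whole class. Cluster 36 was chosen after the data were seen.

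The summed level was not low throughout the sorted library. Its 49 interstitial macrophage-like cells had 6236 CPM of the 8 genes summed, against 1086 CPM in its alveolar macrophage-like cells. Junb was at 3309 and 325 CPM in the respective classes, Egr1 at 670.1 and 22.6 CPM, and Fos at 605 and 107 CPM. In air at pnd7 the 22 interstitial macrophage-like cells had a sum of 6044 CPM, but single genes differed. Jun was at 1635 CPM in these air cells and 679 CPM in the sorted ones, and Dusp1 at 925 and 495 CPM. Junb went the other way, since no class of air at pnd7 was above 1732 CPM. The 19 such cells of unsorted hyperoxia were too few to be used. The macrophage classes of the sorted library thus differed 5.74 times in their summed level.

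**Figure D5:**
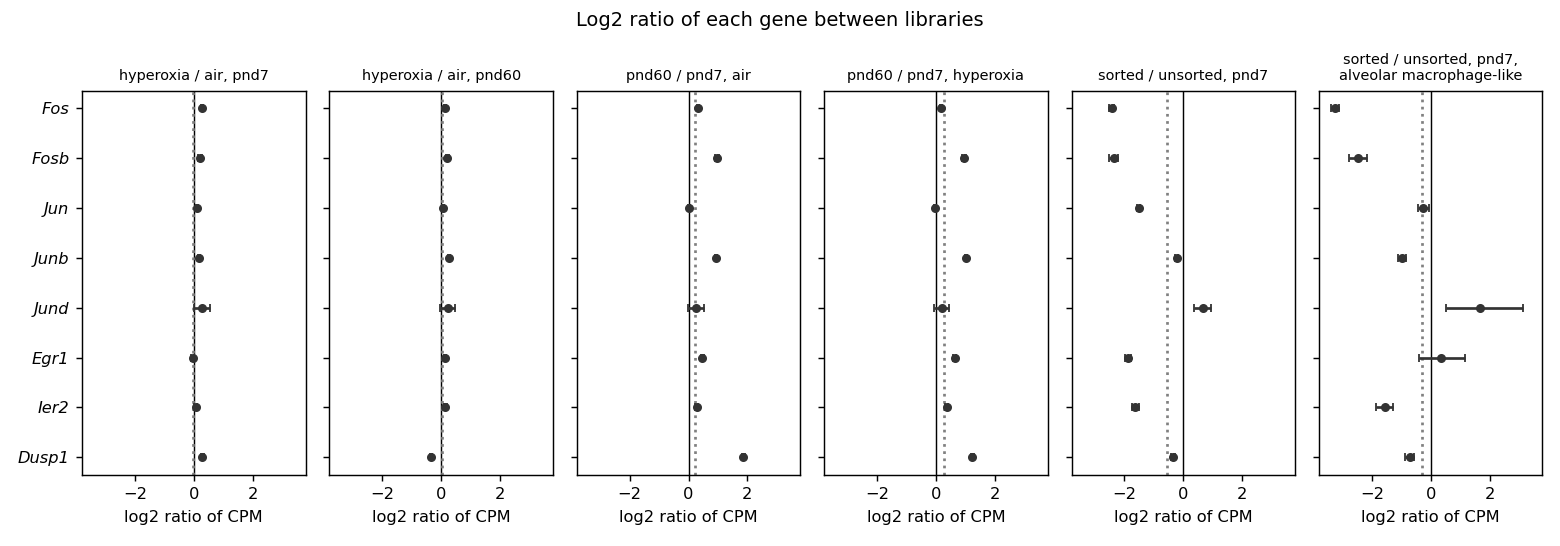
Log2 ratio of CPM (horizontal axis) of each gene (vertical axis) in the 5 comparisons of whole libraries and within alveolar macrophage-like cells. Points are ratios of summed counts, bars their 95% intervals from the binomial distribution, the solid line 0 and the dotted line the median over the genes tested. Fos and Fosb lie at -3.25 and -2.49 in sorted macrophage-like cells and Jun at -0.26, close to the dotted line.

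Other genes of the pathway, in lists chosen with earlier results of these data known, are given by counts beyond counting error. In sorted alveolar macrophage-like cells 38.7% of all genes were lower and 13.9% higher. Of the 9 genes listed as other immediate early transcription factors, 7 were lower, and the median log2 ratio of the 9 was -2.16. The 1 higher was Ier3, which is in that list throughout although it is not a transcription factor. Klf2, which quiets macrophages and endothelium, was at 20.5 against 156 CPM and Myc at 8.28 against 60.3 CPM, whereas Ier3, which protects cells from apoptosis, was at 85.5 against 14.5 CPM. The other AP-1 subunits were split, 3 of 6 higher and 2 lower. Atf3, which is induced by stress, was at 348 against 62.5 CPM, and Batf at 13.7 against 42.4 CPM. The feedback inhibitors and RNA decay genes were split as well, 6 of 12 higher and 5 lower, with Gadd45a at 52.1 against 16.7 CPM and Dusp6, a phosphatase of ERK, at 11.6 against 153 CPM. Of the upstream kinases and factors 6 of 7 were lower, with Mapk3 (ERK1) at 145 against 439 CPM. Of the heat shock genes 4 of 8 were higher and 2 lower, Dnaja1 at 369.7 against 145 CPM and Hspa8 at 1064 against 1760 CPM. Of the effectors 2 of 3 were higher and 0 lower. Lower Fos and Fosb thus stood beside higher Atf3 and Ier3 in the same cells. Over all cells of the library, 6 of 7 other AP-1 subunits were higher after sorting, against 22.4% of all genes. Fosl1 was at 16.5 against 0.221 CPM, the latter on 3 counts, and Atf3 at 562 against 91.8 CPM. That count also sets macrophages against a whole lung.

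Between ages, 11 of 12 other immediate early transcription factors were higher at pnd60 both in air (median log2 ratio 1.58) and in hyperoxia (1.499), with 9 and 8 of them past 2-fold. Of all genes 50.7% and 53.2% were higher, and 15.1% and 19.1% past 2-fold higher. In air Nr4a3 was at 32.6 against 5.77 CPM and Nr4a2 at 71.3 against 16.5 CPM, both orphan nuclear receptors. In hyperoxia Egr3, a relative of Egr1, was at 42.3 against 9.28 CPM. The feedback inhibitors and RNA decay genes were higher in 14 of 17 at pnd60 in both, lower in 1 in air and 2 in hyperoxia, Dusp2 at 209.6 against 44.2 CPM in air and Spry1, an inhibitor of growth factor signalling, at 81.2 against 157 CPM. Of the heat shock genes, 6 of 9 were lower in both and 3 and 1 higher, where 28.9% and 29.0% of all genes were lower, Hsp90ab1 at 787 against 1255 CPM in air. These lists were compared on the same libraries as the 8 genes, and the medians of all genes were 0.23 in air and 0.29 in hyperoxia.

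Between exposures the wider lists are read against 16.3% of all genes higher and 18.4% lower at pnd7, and 11.0% and 8.48% at pnd60. At pnd7, 7 of 9 heat shock genes were higher in hyperoxia and 0 lower (median 0.14), Hspb1 at 72.1 against 56.7 CPM, and 5 of 12 other immediate early transcription factors were higher and 0 lower (median 0.00). Of the feedback inhibitors and RNA decay genes 9 of 17 were higher and 3 lower, with Socs3 at 89.6 against 58.9 CPM. Among other AP-1 subunits 1 of 6 was higher, Atf3 at 91.8 against 58.6 CPM, and 1 lower. At pnd60, 6 of 9 heat shock genes were lower and 0 higher (median -0.15), Hsph1 at 20.7 against 34.5 CPM. Of the effectors at pnd60, 5 of 6 were lower and 0 higher, Ccn2, a matricellular growth factor, at 71.5 against 115 CPM and Thbs1 at 95.1 against 153 CPM. Other immediate early transcription factors at pnd60 were split, 4 of 12 higher and 5 lower, with Nr4a3 at 14.7 against 32.6 CPM.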

How the data were processed

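The 5 libraries were prepared with the Chromium 3′ v3.1 kit. Per the labels and matrix headers, the authors counted unique molecular identifiers with Cell Ranger (3.1.0 in the headers) on mm10, and the submitters' processing notes also name Seurat 3.2.1. The deposited values are raw counts per feature and barcode for each library. From these counts, cells with more than 700 and fewer than 8000 genes and under 5% mitochondrial counts (only 2 mitochondrial features were present) were kept, following the study's filter. The study's transferred cell labels were not used here. Cells were clustered with scanpy 1.11.5 (3000 variable genes, 50 principal components, 20 neighbours, Leiden resolution 2) without the 8 genes, giving 52 clusters named from marker lists, so a difference from the study's cell types may come from the rebuilt names. Doublets were called with Scrublet, which marked 0.0433% to 3.28% of cells and hardly any in the unsorted pnd7 libraries. They were kept, and removed in an alternative. Orders of classes in thinned cells were added after seeing the data.

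Counts were summed over cells of a library or class, and only genes with at least 100 counts in both groups together were compared. Intervals at 95% were exact Poisson for CPM and binomial for ratios (scipy 1.17.1). On simulated counts for hyperoxia against air at pnd7, they covered 95.5% of unchanged genes among 12591. The simulated counts were Poisson, as the intervals assume, so this coverage checks the calculation alone. The uneven spread of counts over cells was not simulated. Molecules are counted with identifiers, and the intervals hold counting error only. The genes named from the wider lists are those at the upper and lower ends of each list. The 8 genes and the 6 lists were chosen with earlier results of these data known.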

Additional observations from a re-analysis of the deposited data

Results flagged for a closer look

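Some differences had opposite signs, each beyond counting error, at the 2 ages or in the 2 exposures. With 1 library per condition the difference between them was not tested. The log2 ratio of hyperoxia against air for Dusp1 was 0.28 at pnd7 and -0.34 at pnd60 over all cells. In monocyte-like cells it was 0.89 and -0.58, and in type I-like cells 0.43 and -0.72. In type I-like cells thinned to 1000 counts the pnd7 order of Dusp1 turned, with 0.382 counts per cell in air and 0.256 in hyperoxia, so the change of sign was lost.

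Other genes of these classes had the same order of signs. In monocyte-like cells Fos was at 0.19 at pnd7 and -0.11 at pnd60, and the 8 genes summed at 0.33 and -0.21. Type I-like cells had 0.34 and -0.40 for Jun and 0.28 and -0.34 for the sum, and both pnd7 orders turned in thinned cells, to 0.92 in air and 0.884 in hyperoxia for Jun and 3.09 and 2.44 for the sum. The sum in alveolar macrophage-like cells was at 0.084 and -0.10. Myofibroblast or smooth muscle-like cells, 23 in each library at pnd60, had 0.33 and -0.65 for Fosb and 0.47 and -0.75 for Junb. In thinned cells Fosb turned at both ages, with 0.269 in air and 0.259 in hyperoxia at pnd7 and 0.739 and 0.957 at pnd60.

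Type II-like cells had the opposite order, with Jun at -0.17 at pnd7 and 0.15 at pnd60 and the sum at -0.044 and 0.23. The pnd7 order of that sum turned in thinned cells, with 4.61 in air and 4.81 in hyperoxia. In the same class the log2 ratio of pnd60 against pnd7 for Egr1 was -0.14 in air and 0.36 in hyperoxia. Type I-, type II- and myofibroblast or smooth muscle-like cells rested on different clusters at the 2 ages.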

How the results depend on the processing

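No paired analysis was possible because there was a single library for every condition. Under every alternative run, the median log2 ratio of the 8 genes kept its sign in the 5 comparisons and within alveolar macrophage-like cells. For hyperoxia against air it was 0.10 with thinned cells at pnd7 (0.21 as reported), and between 0.12 and 0.17 throughout at pnd60 (0.14). For sorted against unsorted cells (-1.57) it was -0.91 with all barcodes, -1.01 as a mean of CPM per cell, -1.13 with thinned cells, -1.03 after centring on all genes and -0.84 with classes weighted alike, which left 1 class. For pnd60 against pnd7 in air (0.39) it was 1.03 with all barcodes, 0.34 as a mean per cell, 0.29 with thinned cells, 0.35 without hemoglobin counts, 0.17 after centring and 0.59 with classes weighted alike. In hyperoxia (0.50) it was 1.16 with all barcodes and 0.21 after centring. Within alveolar macrophage-like cells (-0.84) it was -1.39 with cells classed by their own markers, -1.07 with thinned cells, -0.56 after centring and -1.31 in cluster 36, an alternative chosen after seeing the data. Centring removed the median of all genes, which was -0.55 for sorted cells, -0.28 within the macrophage class, 0.23 for age in air and 0.29 in hyperoxia. The cause of the other shifts was not tested. Mouse-to-mouse spread could not be measured, and small classes carry few counts for Jund.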
